A study of Mus musculus with 12 samples.

Results

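The 10 genes described here mark or direct the fat, bone and cartilage lineages: Pparg, Cebpa, Cebpb, Cebpd, Fabp4, Lpl, Runx2, Sp7, Alpl and Sox9. They were chosen by name from the 21729 genes of a read count table, and were followed through all 12 single cultured cardiac progenitor cells (CPCs) of the series. Of the 10 genes, 4 had counts in all 12 cells (Pparg, Cebpb, Cebpd, Runx2), 5 had counts in some cells (Sox9, Lpl, Fabp4, Cebpa, Alpl) and Sp7 had none.

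All cells belonged to 1 group. They came from female FVB mice aged 12 weeks, and no transgene or deletion is named. Cells positive for c-Kit and negative for blood lineage markers (c-Kit+/Lin-) were sorted magnetically from the non-myocyte fraction of the heart. According to the methods of the study, the hearts of a pair of mice were pooled and the cells were grown on gelatin over 5 passages. The medium held leukemia inhibitory factor at 10 ng/ml, basic fibroblast growth factor at 10 ng/ml and epidermal growth factor at 20 ng/ml. No adipogenic, osteogenic or chondrogenic medium is named. Single cells (CPC1 to CPC12) were picked by glass pipette, and full-length cDNA was sequenced from each. The labels do not tie cells to a culture or mouse, so the 12 cells count as 1 sample, no test was made, and each SD is the spread over cells of 1 sample. Fresh cells were not analysed here.

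Fat cells form under a chain of transcription factors in which Cebpb and Cebpd act early and lead to Pparg and Cebpa, which together switch on genes of lipid storage such as Fabp4 and Lpl. Bone-forming cells depend on Runx2 and, after it, on Sp7 (osterix), and display the enzyme of Alpl on their surface, while cartilage depends on Sox9, which acts with Sox5 and Sox6 on the collagen and aggrecan genes. Stromal cells and fibroblasts of many tissues carry some of these factors without forming fat, bone or cartilage, and several members have other uses: Fabp4 is also a capillary endothelial gene, and Sox9 and Cebpb are used by many cell types.

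Total counts ran from 3453708 to 5690184 per cell, so that a gene at 0 counts could lie at up to 0.527 to 0.869 CPM (counts scaled to the same total in each cell) depending on the cell, which is what 3 counts amount to. Reads were not tagged by molecule, so these limits and the exact 95% intervals given here cover counting error only. CPC10 stood apart. The summed level of 10 endothelial markers was 7565 CPM there, with 8 of the 10 counted, against 2.39 to 47.4 CPM in the other 11 cells, and the defining markers Vwf and Cldn5 were at 0 in every cell. The haematopoietic marker sum was highest in CPC3 (1623 CPM, of which Cd53 gave 1463 CPM, with Ptprc at 0, against 2.99 to 75.6 CPM elsewhere). The mural marker sum was highest in CPC11 (3737 CPM, of which Acta2 gave 3668 CPM, with 3 of 10 markers counted). Fibroblast markers summed to 2080 CPM or more in each cell. Much of this was Fbln2, at 4160 ± 2312 CPM and at least 1315 CPM in each cell. Col1a1, Col1a2 and Col3a1 were lowest in CPC10, at 10.7, 0.376 and 1.13 CPM, while Pdgfra was at 175 CPM there. Kit, the gene of the sorting marker, had 21 counts in CPC10 and none in the other 11 cells. Against the female label, 4 Y-linked genes (Ddx3y, Eif2s3y, Kdm5d, Uty) summed to between 9.76 and 267 CPM in each cell. Results that rest on CPC10 are given with and without it.

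Stretches around the starts of Pparg, Cebpb and Cebpa are shown first, since these genes begin the fat cell chain and differed widely in level. Each runs from 250 bases before to 50 bases after an annotated start, 5′ to 3′ on the plus strand of GRCm38.p6, and the sequences are from RefSeq. Capitals mark matches on either strand to the CCAAT box (CCAAT), the TATA box (TATAAA) and the GC box (GGGCGG).
Pparg upstream start, chr6:115360894-115361193: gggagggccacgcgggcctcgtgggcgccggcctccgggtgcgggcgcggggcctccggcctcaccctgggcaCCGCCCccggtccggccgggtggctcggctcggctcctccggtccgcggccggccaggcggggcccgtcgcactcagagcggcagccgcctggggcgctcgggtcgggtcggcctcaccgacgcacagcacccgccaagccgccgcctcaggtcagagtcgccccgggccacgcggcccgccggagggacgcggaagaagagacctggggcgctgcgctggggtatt
Pparg downstream start, chr6:115421816-115422115: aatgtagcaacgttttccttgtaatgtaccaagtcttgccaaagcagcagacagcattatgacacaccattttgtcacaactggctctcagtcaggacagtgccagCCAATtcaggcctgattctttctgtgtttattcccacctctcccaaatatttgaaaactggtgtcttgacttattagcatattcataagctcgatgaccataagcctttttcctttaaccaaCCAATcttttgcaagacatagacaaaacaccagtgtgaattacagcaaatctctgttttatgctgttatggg
Cebpb, chr2:167688665-167688964: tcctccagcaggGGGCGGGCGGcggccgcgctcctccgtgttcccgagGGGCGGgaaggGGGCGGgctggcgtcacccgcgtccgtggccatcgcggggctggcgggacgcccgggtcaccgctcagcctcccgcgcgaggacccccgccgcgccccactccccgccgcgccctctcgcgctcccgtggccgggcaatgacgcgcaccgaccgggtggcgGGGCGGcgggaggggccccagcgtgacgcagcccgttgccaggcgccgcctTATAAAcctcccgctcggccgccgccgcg
Cebpa, chr7:35119043-35119342: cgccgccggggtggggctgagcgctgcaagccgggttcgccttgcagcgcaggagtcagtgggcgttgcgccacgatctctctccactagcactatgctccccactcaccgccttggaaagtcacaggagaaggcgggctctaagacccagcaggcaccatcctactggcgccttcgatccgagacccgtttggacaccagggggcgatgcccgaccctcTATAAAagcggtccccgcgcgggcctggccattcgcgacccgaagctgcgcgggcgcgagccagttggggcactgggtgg

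The upstream Pparg window and the Cebpb window were among the richest in G and C of 32851 such windows, at 80.3% (percentile 99.2) with 44 CpG and at 80.7% (percentile 99.3) with 50 CpG. The median window had 52.7% and 7 CpG. The downstream Pparg window had 40.3% (percentile 11.4), 2 CpG and a pair of CCAAT boxes at -144 and -22 from the start. A further Pparg window, chr6:115362099-115362398, had 62.7% with 13 CpG, and held a CCAAT box, a TATAAA at -29 and a pair of GC boxes. The Cebpa window was at 67.3% with 29 CpG, and held a TATAAA at -30. Cebpb had 5 GC boxes, and a TATAAA that lies 21 bases after its annotated start. Of all windows, 37.4% held CCAAT, 13.6% TATAAA and 35.7% GGGCGG, so a match is common. The palindrome that C/EBP proteins bind (TTGCGCAA) and the cyclic AMP response element (TGACGTCA) were in none of the 8 windows of 5 members for which a sequence was at hand, and in 0.183% and 1.79% of all windows. Counts are given per gene, and the starts of Pparg cannot be told apart in them.

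**Figure D1:**
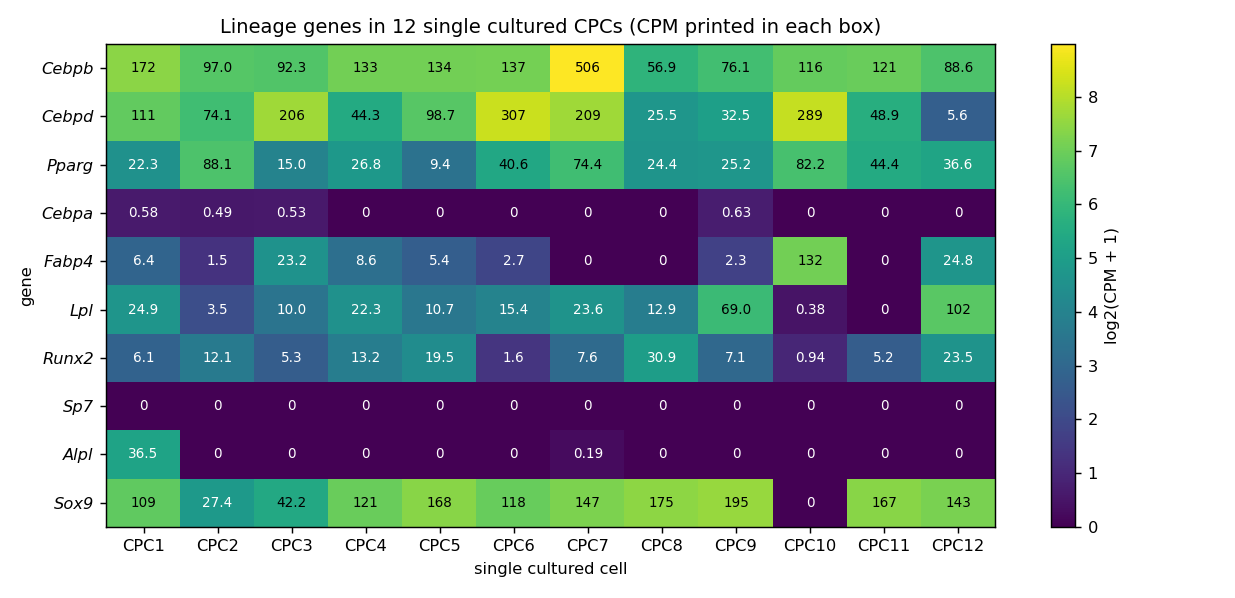
Level of the 10 lineage genes (rows) in each of the 12 single cultured CPCs (columns), with CPM printed in the boxes and colour giving log2(CPM + 1). Cebpb, Cebpd, Pparg and Runx2 have counts in every cell, Sp7 in none, Alpl is almost wholly in CPC1, and CPC10 is the cell with the highest Fabp4 (132 CPM) and with Sox9 at 0.

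The early C/EBP factors had the highest mean levels over 12 cells, although the median of Sox9 (132 CPM) was above both of theirs. Without CPC10 the mean of Sox9 (128 CPM) was also above that of Cebpd (106 CPM). Cebpb (ENSMUSG00000056501.3, a single exon on chromosome 2, 167688915 to 167690418, plus strand) had counts in 12 of 12 cells. Its level ran from 56.9 CPM in CPC8 over a median of 119 CPM to 506 CPM in CPC7, with a mean of 144 ± 118 CPM (SD, 12 cells). CPC7 alone was far above the rest, since the next cell (CPC1) stood at 172 CPM.

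Cebpd (ENSMUSG00000071637.5, chromosome 16, 15887286 to 15891031, plus strand) also had counts in every cell but covered a wider range. It was at 5.62 CPM in CPC12, at a median of 86.4 CPM, and at 307 CPM in CPC6, with a mean of 121 ± 105 CPM (SD, 12 cells). CPC6 and CPC10 (289 CPM) formed the top, followed by CPC7 (209 CPM) and CPC3 (206 CPM), and CPC8, CPC9 and CPC12 were at 32.5 CPM or below. Without CPC10 the mean was 106 ± 95.4 CPM.

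Cebpb and Cebpd share exon bases with genes on the opposite strand, and the strand rule of the counting is not given in the sources used here. Cebpb shares 312 bases, 20.7% of its exon length, with Tmem189, which was at 48.9 ± 17.6 CPM and reached its own highest level of 82.7 CPM in CPC7. Cebpd shares 562 bases (15.0%) with the DNA repair gene Spidr, which was at 48.4 ± 42.1 CPM and was highest, at 142 CPM, in CPC6. In both pairs the highest cell was the same, and what the shared bases add to the counts was not tested.

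Cebpa, the partner of Pparg in fat cells, was close to the limit of detection. The gene (ENSMUSG00000034957.10, chromosome 7, 35119293 to 35121928, plus strand) had 9 counts in all, as 2 counts each in CPC1, CPC2 and CPC3 and 3 counts in CPC9. The highest level was 0.629 CPM (exact Poisson interval 0.130 to 1.84 CPM), and the other 8 cells were at 0. An antisense gene, Gm45091, shares exon bases with Cebpa and is not in the table.

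Among the C/EBP family, levels of different genes were compared per kilobase of exon. Cebpb led with 95.9 ± 78.6 CPM per kb, and was followed by Ddit3 (CHOP, a stress-induced member that blocks the others by pairing with them) with 73.0 ± 56.7 CPM per kb and by Cebpd with 32.3 ± 28.1 CPM per kb. Cebpz, placed in this list by its symbol only, was at 12.7 CPM per kb. Cebpg was at 7.00 and Cebpa at 0.0705 CPM per kb, and Cebpe had no count. Their SDs overlap widely at the top of this order, but Cebpb was above Cebpd per length in 11 of 12 cells and above Pparg in 12 of 12.

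Pparg (ENSMUSG00000000440.12, chromosome 6, 115360951 to 115490399, plus strand), the nuclear receptor on which fat cell formation depends, had counts in all 12 cells. Its level ran from 9.35 CPM in CPC5 over a median of 31.7 CPM to 88.1 CPM in CPC2, with a mean of 40.8 ± 26.7 CPM (SD, 12 cells) and of 37.0 ± 24.4 CPM without CPC10. CPC2, CPC10 (82.2 CPM) and CPC7 (74.4 CPM) lay above the other 9 cells, of which the highest was CPC11 at 44.4 CPM. Pparg was the leading PPAR gene per length: it stood at 13.8 ± 9.03 CPM per kb, Ppard at 0.324 ± 0.222 CPM per kb, and Ppara had no count.

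Fabp4 and Lpl, which fat cells use to bind and to take up fatty acids, each had cells at 0. Fabp4 (ENSMUSG00000062515.3, chromosome 3, 10204088 to 10208576, minus strand) was at 0 in CPC7, CPC8 and CPC11, at a median of 4.01 CPM, and at 132 CPM (704 counts, exact Poisson interval 123 to 142 CPM) in CPC10. CPC12 (24.8 CPM) and CPC3 (23.2 CPM) were next, and the other 6 cells with counts were between 1.48 and 8.63 CPM. CPC10 held 63.9% of the summed CPM of Fabp4, a share reached by 3.64% of 11542 genes with a mean of 1 CPM or more. With CPC10 the mean was 17.2 ± 37.2 CPM, and without it 6.80 ± 8.96 CPM.

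CPC10 was the cell with the endothelial marker sum of 7565 CPM, and the part of this in the Fabp4 level was not tested. In the other 11 cells, where endothelial markers summed to at most 47.4 CPM, Fabp4 reached 24.8 CPM. The cells with Fabp4 at 0 were among the 5 cells (CPC7, CPC8, CPC10, CPC11, CPC12) with the fewest detected genes, 10022 to 10181 against 11216 to 11950 in the other 7. CPC10 and CPC12 of these 5 had the highest Fabp4 of all.

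**Figure D2:**
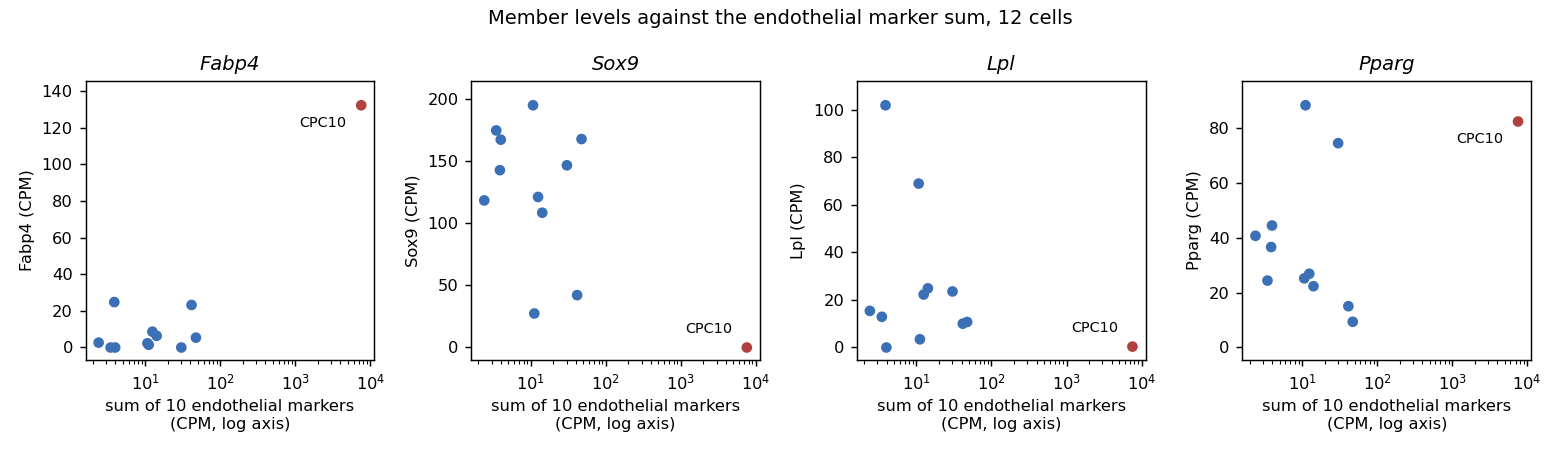
Level (CPM) of Fabp4, Sox9, Lpl and Pparg against the summed CPM of 10 endothelial markers (log axis), each point 1 of the 12 cells and CPC10 in red. CPC10 lies alone at 7565 CPM on the x axis, with the highest Fabp4, Sox9 at 0, 2 counts of Lpl, and Pparg at 82.2 CPM.

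Lpl (ENSMUSG00000015568.16, chromosome 8, 68880491 to 68907448, plus strand), the lipoprotein lipase, had counts in 11 of 12 cells. It was at 0 in CPC11, at 0.376 CPM (2 counts) in CPC10, at a median of 14.2 CPM, and at 102 CPM in CPC12, with a mean of 24.5 ± 30.5 CPM (SD, 12 cells) and of 26.7 ± 31.0 CPM without CPC10. CPC12 and CPC9 (69.0 CPM) were apart from the rest, which did not exceed 24.9 CPM. The cell richest in Fabp4 was thus among the poorest in Lpl, while CPC12 ranked number 2 for Fabp4 and number 1 for Lpl. Lpl was above Fabp4 per length in 7 of 12 cells, although the mean was lower (2.34 ± 2.91 against 3.84 ± 8.28 CPM per kb). Without CPC10 the order of the means turned, with Lpl at 2.55 ± 2.95 and Fabp4 at 1.51 ± 2.00 CPM per kb.

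Relatives of these lipid genes followed their own order. Of 9 fatty acid binding protein genes, Fabp5, the epidermal form, was the most abundant per length at 50.8 ± 26.5 CPM per kb and had counts in 12 of 12 cells. Fabp3 of heart muscle was at 3.09 ± 4.84 CPM per kb and Fabp7 at 2.05 ± 2.71 CPM per kb, Fabp2 and Fabp12 had 1 and 3 counts in 1 cell each, and Fabp1, Fabp6 and Fabp9 had none. Among the lipases Lipc, Lipg and Liph were at 0.270, 0.207 and 0.240 CPM per kb, below the 2.34 CPM per kb of Lpl, and Lipc had 36 counts in CPC10 and a mean of 0.0191 CPM without it.

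Of 8 genes that act on the Lpl protein, 3 had counts in all 12 cells: Sel1l (77.1 ± 27.7 CPM) and Lmf1 (35.5 ± 26.4 CPM), which help its folding and exit from the endoplasmic reticulum, and Furin (31.0 ± 25.6 CPM), a protease that cleaves it. Angptl4, a secreted inhibitor of Lpl, had counts in 11 cells and was at 66.1 ± 83.5 CPM. Gpihbp1, which holds Lpl on capillary endothelium, had no count in any cell, CPC10 included. Angptl8 and Apoc2 were also at 0. By comparison, 35.3% of all genes had counts in all 12 cells and 33.4% had none. The 3 of 8 counted in every cell and the 3 of 8 without counts were thus near these shares.

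Among the bone members, Runx2 was counted in each cell, Sp7 in none and Alpl in 2. Runx2 (ENSMUSG00000039153.16, chromosome 17, 44495987 to 44814797, minus strand) had counts in all 12 cells, from 0.939 CPM (5 counts) in CPC10 over a median of 7.37 CPM to 30.9 CPM in CPC8. The mean was 11.1 ± 9.24 CPM (SD, 12 cells), and 12.0 ± 9.09 CPM without CPC10. CPC8, CPC12 (23.5 CPM) and CPC5 (19.5 CPM) were highest, and CPC10 and CPC6 (1.59 CPM) lowest. Runx2 shares exon bases with the antisense gene Runx2os1, which is not in the table.

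Sp7 (ENSMUSG00000060284.7, chromosome 15, 102356606 to 102367182, minus strand) had 0 counts in 12 of 12 cells, which by the limit of 3 counts allows a level of up to 0.527 CPM in CPC12 and 0.869 CPM in CPC1. Its relatives Sp1 (6.50 ± 3.85 CPM per kb), Sp2 (4.16 ± 2.59 CPM per kb) and Sp3 (8.39 ± 6.16 CPM per kb), which act in most cell types, had counts in all 12 cells. Sp4 had counts in 7 cells and Sp5 in CPC10 only (74 counts), and Sp6, Sp8 and Sp9 were at 0 like Sp7.

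Alpl (ENSMUSG00000028766.10, chromosome 4, 137741733 to 137796384, minus strand), the tissue-nonspecific alkaline phosphatase, was a gene of 1 cell. It had 126 counts in CPC1, or 36.5 CPM (exact Poisson interval 30.4 to 43.4 CPM), 1 count in CPC7 and none in the other 10 cells. CPC1 held 99.5% of its summed CPM, and 0.425% of 11542 genes with a mean of 1 CPM or more were as concentrated in a single cell. CPC1 had the lowest total of all cells and was number 8 of 12 for Runx2, at 6.08 CPM. Of the other alkaline phosphatases, Alpi had 11 counts in CPC2 and Alppl2 had none.

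In the Runx family Cbfb, the common partner that lets Runx proteins bind DNA firmly, led per length with 22.8 ± 16.4 CPM per kb. Runx1, the blood stem cell factor that stromal cells also use, was at 2.46 ± 1.96 CPM per kb and Runx2 at 1.26 ± 1.05 CPM per kb, a difference within the spread over cells. Runx3 had no count. Runx2 was below Pparg per length in 12 of 12 cells.

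Sox9 (ENSMUSG00000000567.5, chromosome 11, 112782224 to 112787760, plus strand), the cartilage factor, was among the more abundant members. It was at 0 in CPC10, at a median of 132 CPM, and at 195 CPM in CPC9, with a mean of 118 ± 62.9 CPM (SD, 12 cells) and of 128 ± 53.3 CPM without CPC10. CPC2 (27.4 CPM) and CPC3 (42.2 CPM) were low, and the other 9 cells lay between 109 and 195 CPM. Sox8 and Sox10, the remaining genes of its group, had no count in any cell.

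The 0 of Sox9 in CPC10 was a rare pattern in the table. At the total of CPC10, 0 counts allow up to 0.563 CPM, while the lowest of the other 11 cells had 27.4 CPM. Only 6 genes were at 0 in CPC10 and at 20 CPM or more in each of the other 11 cells, a limit chosen after the values were seen, and Sox9 was 1 of them. By the same count there were 2 such genes for CPC7, 3 for CPC8 and 0 for each of the other 9 cells.

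**Figure D3:**
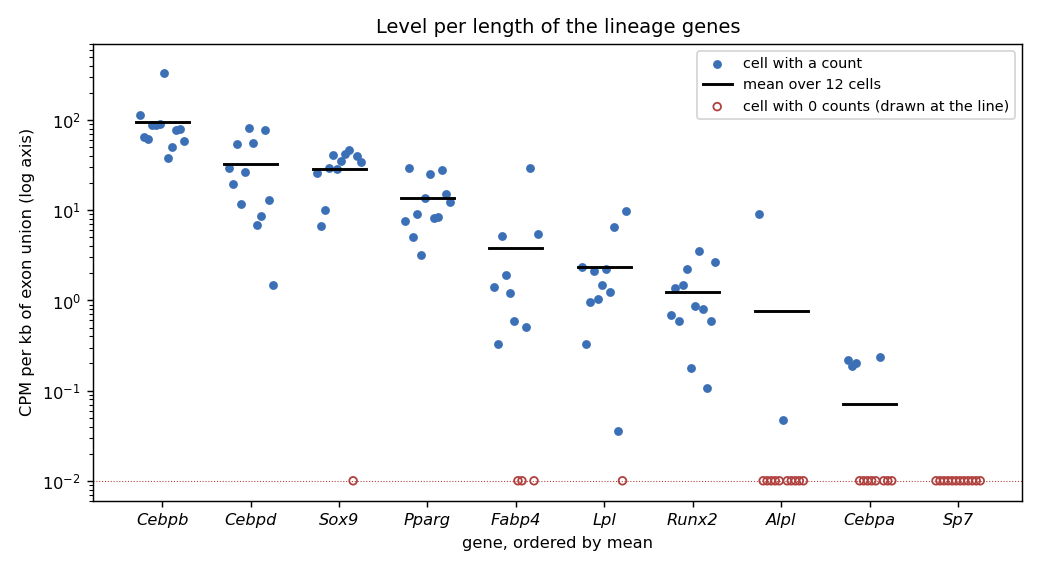
Level of the 10 genes per kilobase of exon (CPM per kb, log axis), with 1 point for each of the 12 cells, a line at the mean, and open circles at the bottom for cells with 0 counts. Cebpb, Cebpd, Sox9 and Pparg form the upper part of the order, and Alpl, Cebpa and Sp7 consist mostly or wholly of cells at 0.

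Per length, the order of mean levels was Cebpb, Cebpd, Sox9 (28.5 ± 15.2 CPM per kb), Pparg, Fabp4, Lpl, Runx2, Alpl (0.758 ± 2.61 CPM per kb), Cebpa and Sp7. Among the 9 pairs of neighbours in this order, the difference was larger than the larger of both SDs only between Pparg and Fabp4 (9.97 CPM per kb). All other neighbours lay within the spread between cells. The place of Fabp4 rests on its annotated exon length of 4489 bases, and the transcript lengths present in these cells were not measured. Read cell by cell, Sox9 was above Runx2 in 11 cells and above Pparg in 10, while Cebpd was above Sox9 in 6 of 12 cells. Without CPC10, Lpl came before Fabp4 and Sox9 (31.1 ± 12.9 CPM per kb) before Cebpd (28.2 ± 25.5 CPM per kb), and the other 6 genes had the same ranks.

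Over the 10 members, 85 of 120 values (a gene in a cell) had at least 1 count, or 70.8%, and 52.5% were at 10 CPM or more. Over all genes of the table the shares were 50.5% and 35.9%. No interval is given for shares over gene lists, because the values of a gene go together over cells of 1 sample. Of all genes 35.3% had counts in 12 of 12 cells, against 4 of the 10 members, and 39.1% had a mean of 10 CPM or more, against 7 of the 10.

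Genes used by mature fat, bone and cartilage cells were read from further lists. Of 20 fat cell genes, 5 had counts in all 12 cells, 7 had none, and 39.2% of their values were counted, with a median mean level of 0.797 CPM. Of all 21729 genes 35.3% had counts in all 12 cells, 33.4% had none, 50.5% of values were counted, and the median mean level was 1.94 CPM. The 7 of 20 without counts is thus near the share of the whole table. Plin2, a lipid droplet coat protein of many cell types, was the highest at 274 ± 163 CPM, followed by the lipid enzymes Pnpla2 (41.7 ± 29.6 CPM), Dgat1 (33.5 ± 24.4 CPM) and Lpin1 (15.5 ± 12.8 CPM). The hormones and secreted proteins Adipoq, Lep, Retn and Cfd, the droplet proteins Plin1 and Cidec, and the fatty acid receptor Cd36 had no count in any cell. CPC10, the cell richest in Fabp4, had counts of 8 of the 20 genes, and the other cells of 6 to 9.

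Genes of brown fat had few counts. Ucp1, which makes heat in mitochondria, had no count, nor had Cidea, Dio2 and Elovl3, and 15.6% of the values of 8 genes were counted. Ebf2, a factor of brown fat precursors, was the highest at 9.69 ± 8.53 CPM in 10 of 12 cells, and Ppargc1a, Prdm16 and Cox8b had mean levels of 0.303 CPM or less.

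Of 8 further factors that drive fat cell formation 5 had counts in all 12 cells and none was without counts, and 77.1% of values were counted. Klf4 (77.9 ± 33.0 CPM), the glucocorticoid receptor Nr3c1 (75.8 ± 26.6 CPM), Srebf1 (37.0 ± 17.5 CPM) and Ebf1 (32.6 ± 39.0 CPM, and 22.2 ± 16.1 CPM without CPC10) led. Of the values of 8 genes listed as brakes on fat cell formation 78.1% were counted. At 10 CPM or more the shares were 60.4% for the regulators and 43.8% for the brakes, a difference that was not tested. Over all genes, 50.5% of values were counted and 35.9% were at 10 CPM or more, while 35.3% of genes had counts in all 12 cells and 33.4% had none. The highest brakes were Sfrp1 (188 ± 153 CPM), Ddit3 (125 ± 97.2 CPM), Klf2 (31.2 ± 58.9 CPM, with 209 CPM in CPC10, and 15.1 ± 19.2 CPM without it) and Nr2f2 (21.1 ± 10.9 CPM). Sfrp1 does not fully match the name of the list, since it is a secreted antagonist of Wnt, a signal that itself restrains fat cell formation. Ddit3 is counted both here and in the C/EBP family.

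Of 20 bone genes, 4 had counts in all 12 cells, 4 had none, and 39.2% of values were counted, with a median mean level of 0.339 CPM. Of all genes in the table, 35.3% had counts in all 12 cells, 33.4% had none, 50.5% of values were counted, and the median mean level was 1.94 CPM. The 4 highest were matrix or transport genes that fibroblasts also use: Sparc (3198 ± 1881 CPM), Spp1, Col1a1 (406 ± 554 CPM) and the phosphate transporter Slc20a1 (137 ± 134 CPM). Spp1 (osteopontin) had a median of 72.6 CPM and reached 9942 CPM in CPC3, the cell with the highest haematopoietic marker sum, most of it Cd53. Ibsp, Dmp1, Mepe and Sost, which belong to mineralising osteoblasts and osteocytes, had no count. Osteocalcin, read as Bglap and Bglap2 and named after its values were seen, had 4 counts in CPC2 and 3 counts in CPC1 respectively, and these near-identical copies are uncertain.

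Of the values of 8 further bone regulators 61.5% were counted, against 50.5% over all genes of the table. Atf4, a stress factor that osteoblasts need for collagen synthesis, was at 302 ± 107 CPM, Cbfb at 79.3 ± 57.1 CPM, Twist1 at 16.0 ± 8.37 CPM and Msx1 at 15.2 ± 11.5 CPM. Tnfsf11 (RANKL), the signal to osteoclasts, had no count.

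Cartilage products had few counts. Of 19 cartilage genes none had counts in all 12 cells, 9 had none in any, and 13.2% of values were counted, with a median mean level of 0.0241 CPM, below the 50.5% and 1.94 CPM of the whole table. There 35.3% of genes had counts in all 12 cells and 33.4% had none. Col11a1, a minor fibrillar collagen, was the highest at 10.2 ± 13.0 CPM in 9 cells, followed by Matn3, Col9a3 and Prg4 with means of 0.979, 0.713 and 0.392 CPM. Col9a1, Col9a2, Col10a1, Matn1, Hapln1, Chad, Mia, Cytl1 and Ucma were at 0. The main Sox9 targets Col2a1 and Acan, named after their values were seen, had 3 counts in CPC1 and 4 counts in CPC12.

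Of 8 further cartilage regulators, 2 had counts in all 12 cells and 45.8% of values were counted, against 50.5% in the whole table. Among all genes, 35.3% had counts in all 12 cells and 33.4% had none. Sox5, which assists Sox9, was at 1.63 ± 3.10 CPM with counts in 6 cells (0.859 ± 1.63 CPM without CPC10), and Sox6, named after its value was seen, at 0.739 ± 1.40 CPM with counts in 3. The general factors Zbtb20 (233 ± 120 CPM), Nfat5 (88.0 ± 51.5 CPM) and Trps1 (19.8 ± 13.2 CPM) were higher, and Nkx3-2, Gdf5 and Barx2 had no count.

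**Figure D4:**
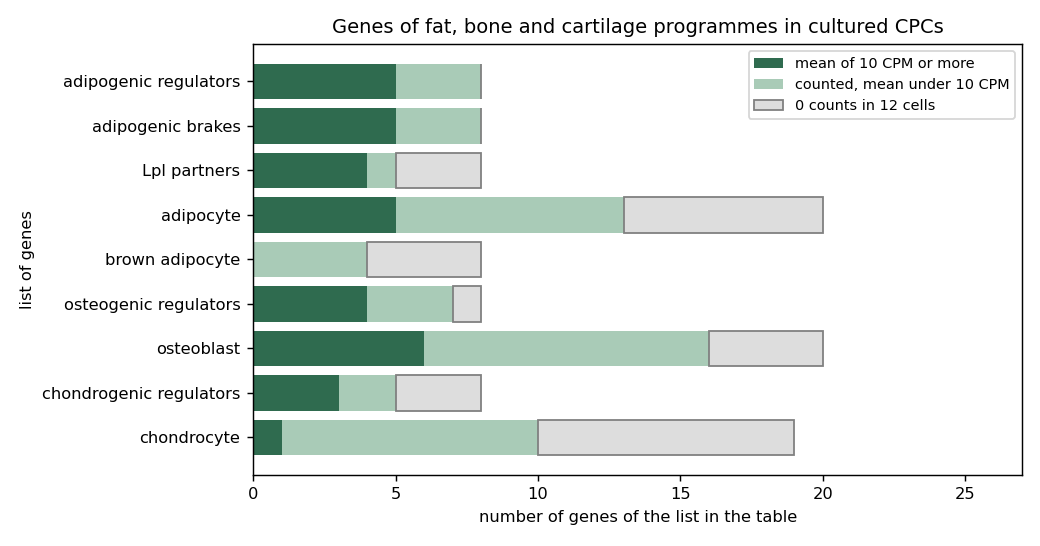
Number of genes (x axis) in each of 9 lists of fat, bone and cartilage genes (y axis) with a mean of 10 CPM or more, with counts but a lower mean, and with 0 counts in 12 cells. No regulator or brake of fat cell formation is at 0 in every cell, while 7 of 20 fat cell products, 4 of 20 bone genes and 9 of 19 cartilage genes are, and 33.4% of all genes of the table.

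The spread between cells was next compared at a like level. The dispersion residual is log10 of the squared ratio of SD to mean, less the running median of genes with a similar mean, over 9701 genes, and 0 is the middle. Fabp4 had the largest residual of the 7 members that could be placed (1.01, percentile 97.7), followed by Cebpd (0.68, percentile 93.6), Cebpb (0.65, percentile 93.1) and Lpl (0.60, percentile 92.2). Sox9 (0.26, percentile 77.6), Pparg (0.19, percentile 72.2) and Runx2 (0.03, percentile 54.5) were nearer to the middle. A single cell carried some of these values. Without CPC7 the residual of Cebpb was -0.30, and without CPC10 that of Fabp4 was 0.37 and that of Sox9 0.11. Cebpd kept a residual of at least 0.57 when any cell was left out, and Lpl of at least 0.46.

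**Figure D5:**
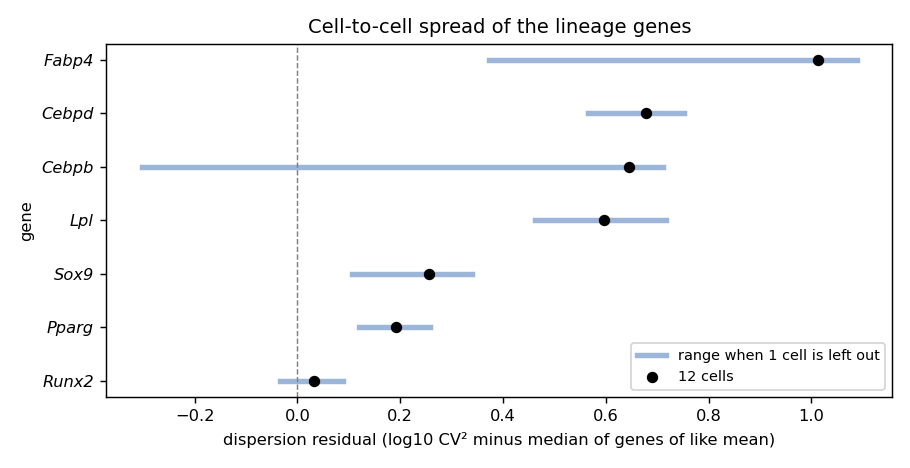
Dispersion residual (log10 of the squared ratio of SD to mean, less the running median at a like mean, x axis) of 7 lineage genes (y axis), with a point for 12 cells and a bar for the range when 1 cell is left out. The bars of Cebpb and Fabp4 reach down to -0.30 and 0.37, and those of Cebpd, Lpl, Sox9 and Pparg stay above 0.

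Correlations over the 12 cells, as Pearson's r of log2(CPM + 1), are a description. The labels tie no cell to a culture, mouse or library preparation, and the cells differ in depth. The 21 pairs among 7 members had a median r of -0.05, against 0.03 over all pairs of 8381 genes that averaged at least 10 CPM with counts in at least 8 cells. The strongest was between Cebpd and Runx2, with r = -0.74 (Spearman's rho -0.73), and r = -0.70 without CPC10. CPC6 and CPC10, highest in Cebpd, were the lowest in Runx2, and CPC8 and CPC12, highest in Runx2, were lowest in Cebpd. Of all gene pairs 5.42% had an r below -0.5. With total counts Cebpd had r = -0.46 and Runx2 0.30, and without CPC10 these were -0.61 and 0.56. Depth thus moved with both genes, and the part of depth in this was not tested.

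Several other pairs moved when CPC10 was left out. Fabp4 and Sox9 had r = -0.69, and -0.28 without CPC10. Runx2 and Sox9 had r = 0.58, and 0.16 without it, and Lpl and Sox9 had 0.56 and 0.29. Cebpb and Cebpd, both early factors, changed little, with r = 0.50 (rho 0.66) and 0.54 without CPC10. Fabp4 and Lpl, both products of fat cells, had r = -0.03, and 0.47 without CPC10. Pparg and Fabp4 had r = -0.05, and -0.48 without CPC10, and Pparg and Lpl had -0.36 and -0.19.

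The genes most like each member over the 12 cells are named next. High values are common in so few cells: over the 8381 genes, the closest other gene had a median r of 0.90, and the fifth closest 0.85. The r of the fifth closest gene lay at percentile 97.2 of these genes for Sox9, 74.6 for Cebpd, 55.5 for Runx2, 41.1 for Lpl, 31.7 for Fabp4, 16.1 for Pparg and 8.67 for Cebpb. Sox9 was most like Nbas (r = 0.96), Nrf1 (0.93), Zxdc (0.93), Loxl1 (0.93) and Lrp1 (0.93), but without CPC10 these values were 0.78, 0.67, 0.61, 0.46 and 0.53. Fabp4 was most like Rhoj (0.92, and 0.92 without CPC10), Mgat5 (0.91), Hivep3 (0.87), Ppt2 (0.84) and Pde3a (0.83), the last 4 at 0.85, 0.78, 0.74 and 0.81 without CPC10. Lpl was most like Btbd3 (0.88), the hyaluronan synthase Has2 (0.87), Slit2 (0.85), Sirt1 (0.84) and the laminin gene Lama4 (0.84).

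Among the regulators, Pparg was most like Fuca2 (0.90), with Tpst2 (0.84), Taf9b (0.83) and Dis3l (0.81) also among the closest. Cebpb was most like Ndufa6 (0.87), Selenos (0.84), Cd55 (0.82), Smdt1 (0.80) and Nrd1 (0.79). The genes close to Cebpd included Akr1b10 (0.91), March2 (0.89), Nat9 (0.88) and Klhl6 (0.88), and Runx2 was most like Kpna3 (0.91), Eif2s2 (0.88), Eif3j2 (0.86), Slc35e3 (0.86) and Lims2 (0.86). No member was among the 5 closest genes of another member.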

How the data were processed

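Messenger RNA of 12 single cultured CPCs was copied with the Smart-Seq v4 kit, and libraries were made with Nextera XT. According to the methods and the submitters' processing notes, the authors mapped reads to mm10 with STAR 2.5.2b and kept unique matches. The table the authors deposited holds unnormalized read counts for each gene in each cell. The counting program, annotation and strand rule are not given in the sources used here.

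CPM (each count over its cell's total, times 1000000), exact Poisson intervals at 95% (binomial ones for shares, as the limit of a moved value), levels per kilobase of exon union, dispersion residuals (mean of at least 5 CPM, counts in 3 or more cells, running median over 201 genes) and correlations were computed from the counts with Python 3.11.15, numpy 2.4.6, pandas 2.3.3 and scipy 1.17.1, and plots were drawn with matplotlib 3.10.9. Columns were matched to cells by name. Positions are from GENCODE M21, on the genome build of mm10, and 98.4% of symbols matched. One symbol of the cartilage list, Snorc, is not analysed here. Promoter windows are from RefSeq, and 5 of 10 members had one. The dispersion residual and the search for the most alike genes were tested on simulated data.

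Members and lists were chosen with earlier results of these data known. Named were all members, the 5 genes most like each of 7 members with a mean of at least 10 CPM and counts in at least 8 cells, up to 4 highest genes of each list, those at 0 in every cell, and whole families. Some of the genes that this rule names are not reported here. Other names were chosen after their values were seen. The cell type lists were endothelial, fibroblast, mural and haematopoietic. Doublets were not looked for, as the cells were picked singly. With 1 group and 1 sample there was no test. Alternatives were other detection limits, pseudocounts, size factors, lengths, Spearman's rho and leaving out each cell in turn.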

Additional observations from a re-analysis of the deposited data

How the results depend on the processing

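Stricter limits lowered the share of values counted by construction. At 10 CPM or more it was 52.5% for the 10 members, 22.1% for fat cell genes, 27.1% for bone genes and 2.19% for cartilage genes. At 10 counts or more it was 31.7%, 32.9% and 4.82% for the 3 lists, and at 1 CPM or more 7.46% for cartilage genes. Leaving out any cell moved the share of the members and of these 3 lists by no more than its binomial interval, which treats values as independent, and no median level of a member by more than the spread between cells. Shares of the other lists were not recomputed in this way. The dispersion residual of Cebpb was -0.30 without CPC7 and that of Fabp4 0.37 without CPC10. The correlation of Fabp4 and Sox9 was -0.28 without CPC10, and with Spearman's rho that of Cebpb and Cebpd was 0.66 and that of Cebpb and Sox9 -0.22. Of 21 correlations between members, 8 changed sign under some alternative and 13 under none, Cebpd and Runx2 staying between -0.81 and -0.69. With the longest transcript as length, Lpl ranked 5 and Fabp4 6. The same exchange occurred without CPC10, an alternative chosen after the data were seen, under which Sox9 ranked 2 and Cebpd 3. The causes were not tested. For Sp7, the listed genes at 0 and the cells without Cebpa, a count of 0 allows up to 0.527 to 0.869 CPM depending on the cell. This limit of 3 counts covers counting error only.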
